A study of Drosophila melanogaster with 24 samples.

Results

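The cytosolic ribosomal protein genes of *Drosophila melanogaster* were examined in RNA-Seq libraries of male heads. A gene was counted as a member when its symbol in the deposited tables began with RpL or RpS, or was *sta*, which encodes a small subunit protein. Of the 13700 annotated genes with a value in the series, 93 met this rule. Among them were 50 genes of the large subunit, 38 of the small subunit, and 5 related genes whose names end in -like. The members lay on every major chromosome arm, with 18 on 2L, 19 on 2R, 13 on 3L, 23 on 3R, 14 on X, and 1 on the fourth chromosome, and positions of 5 more were not used here.

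AD flies carried a human amyloid transgene, which the sample labels call hAPP and the study's methods give as UAS-Aβ42 in the w1118 background, driven in neurons by the elav-GAL4 c155 line. WT flies were w1118 outcrossed to the same driver line, so both genotypes carried the driver. Heads of both genotypes were collected at days 3, 10, 20, and 30 after eclosion, with 3 replicate pools per genotype and age. There were thus 8 groups and 24 libraries. No source used here says whether the pools came from separate crosses or vials, so the p-values measure the spread between these pools. Expected counts, the estimated numbers of fragments per gene, summed to between 12884945 and 26731357 per library.

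Each ribosome is assembled from ribosomal RNA and one copy of most of these proteins, and an even supply of the proteins is needed for assembly. In flies, loss of one copy of many of these genes gives the Minute phenotype of slow development and short, thin bristles. Translation of their mRNAs is controlled through the TOR pathway, which senses nutrients. *RpL32* has a second role in this field, since its mRNA, also known as rp49, is a common reference for qPCR and was the reference in the study.

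Labels and tissue were checked first. Photoreceptor markers were abundant in every library, with *ninaE*, the main rhodopsin, between 389980 and 847878 normalized counts (counts scaled for library size and composition). Transgenes are commonly marked by a copy of the eye colour gene *w*. This gene had between 3064 and 4372 normalized counts in 11 of the 12 AD libraries and between 1094 and 1832 in the WT libraries, while the library labelled AD day 30 replicate 3 had 1529, within the WT range. The main counts and values on AD flies at day 30 are therefore also given without it. Body tissue genes appeared in 2 libraries of day 3. The summed counts of 5 gut markers were 6234 in AD day 3 replicate 2 and 3086 in WT day 3 replicate 1, against 44.7 to 216 in all other libraries. The accessory gland gene *Acp36DE* had 660 normalized counts in AD day 3 replicate 2 and 2120 in WT day 3 replicate 1, and at most 23.98 elsewhere. Replicate 1 of days 3, 10, and 20 came from another processing run than the remaining 18 libraries, which could be seen from the lengths of genes that the authors added. Expected counts in these 6 libraries summed to between 21168175 and 26731357, against 12884945 to 16237611 in the other 18.

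Ribosomal protein mRNA was a large and uneven part of these head transcriptomes. Values scaled to gene length and library size (FPKM), which allow levels of different genes to be compared, were above 1000 on average for 79 of the 93 members, from 1149 for *RpS5a* to 4545 for *RpL41*. After *RpL41*, which encodes the smallest protein of the ribosome, came *RpS26* with a mean of 4243 FPKM and *RpL27A* with 3939 FPKM. Another 14 members formed a separate lower set, with means of 628 FPKM and less. Most of these were second copies of a gene or -like genes.

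The share of all counts taken by the members differed more by age than by genotype. In AD flies it was 7.40%, 6.65%, and 9.23% in replicates 1 to 3 at day 3, 10.6%, 10.6%, and 10.0% at day 10, 11.2%, 10.5%, and 11.8% at day 20, and 11.6%, 12.2%, and 10.97% at day 30. In WT flies the shares were 7.07%, 6.71%, and 9.53% at day 3, 9.58%, 9.005%, and 10.3% at day 10, 11.1%, 10.2%, and 9.66% at day 20, and 10.0%, 10.5%, and 10.2% at day 30. All 3 AD libraries at day 30 were above all 3 WT libraries, whereas the genotypes overlapped on the 3 earlier days. By share of the FPKM sum the genotypes overlapped at day 30 also. The library labelled AD day 30 replicate 3 then had 23.96%, against 23.98% in WT day 30 replicate 3. At day 3, replicates 1 and 2 of both genotypes had the lowest shares of the series, and replicate 3 of both genotypes stood near the older flies. The mean share was 11.6% ± 0.60 in AD flies at day 30 (11.9% without the library labelled AD day 30 replicate 3) and 7.76% ± 1.33 at day 3, and 10.2% ± 0.22 and 7.77% ± 1.53 in WT flies (SD, n = 3 each). In bulk RNA, a different number of cells of a type and a different amount of RNA per cell cannot be told apart.

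**Figure D1:**
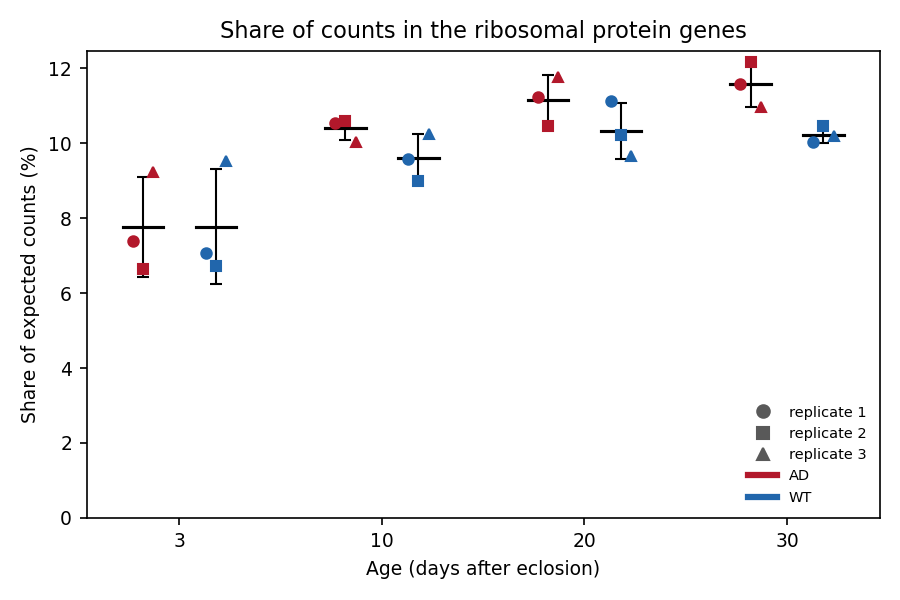
Share of the expected counts (%) in the 93 ribosomal protein genes, by age in days after eclosion (not to scale), with AD left of WT. Symbols are libraries, horizontal lines are means, and bars are 1 SD (n = 3 per group). Replicates 1 and 2 of day 3 lie between 6.65% and 7.40%, and replicate 3 of day 3 at 9.23% in AD flies and 9.53% in WT flies.

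The low day 3 libraries were low in nearly every member. Of the 88 members with enough counts to be tested, replicate 3 was the highest of the day 3 libraries in 85 genes in AD flies and 84 genes in WT flies. Replicates 1 and 2 were both below every older library of their genotype in 75 members in AD flies and 74 in WT flies. Replicate 3 was below every older library in only 21 members in AD flies and 2 in WT flies. The median member was 0.56 higher on the log2 scale in replicate 3 than in the mean of replicates 1 and 2 in AD flies, and 0.59 higher in WT flies.

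**Figure D2:**
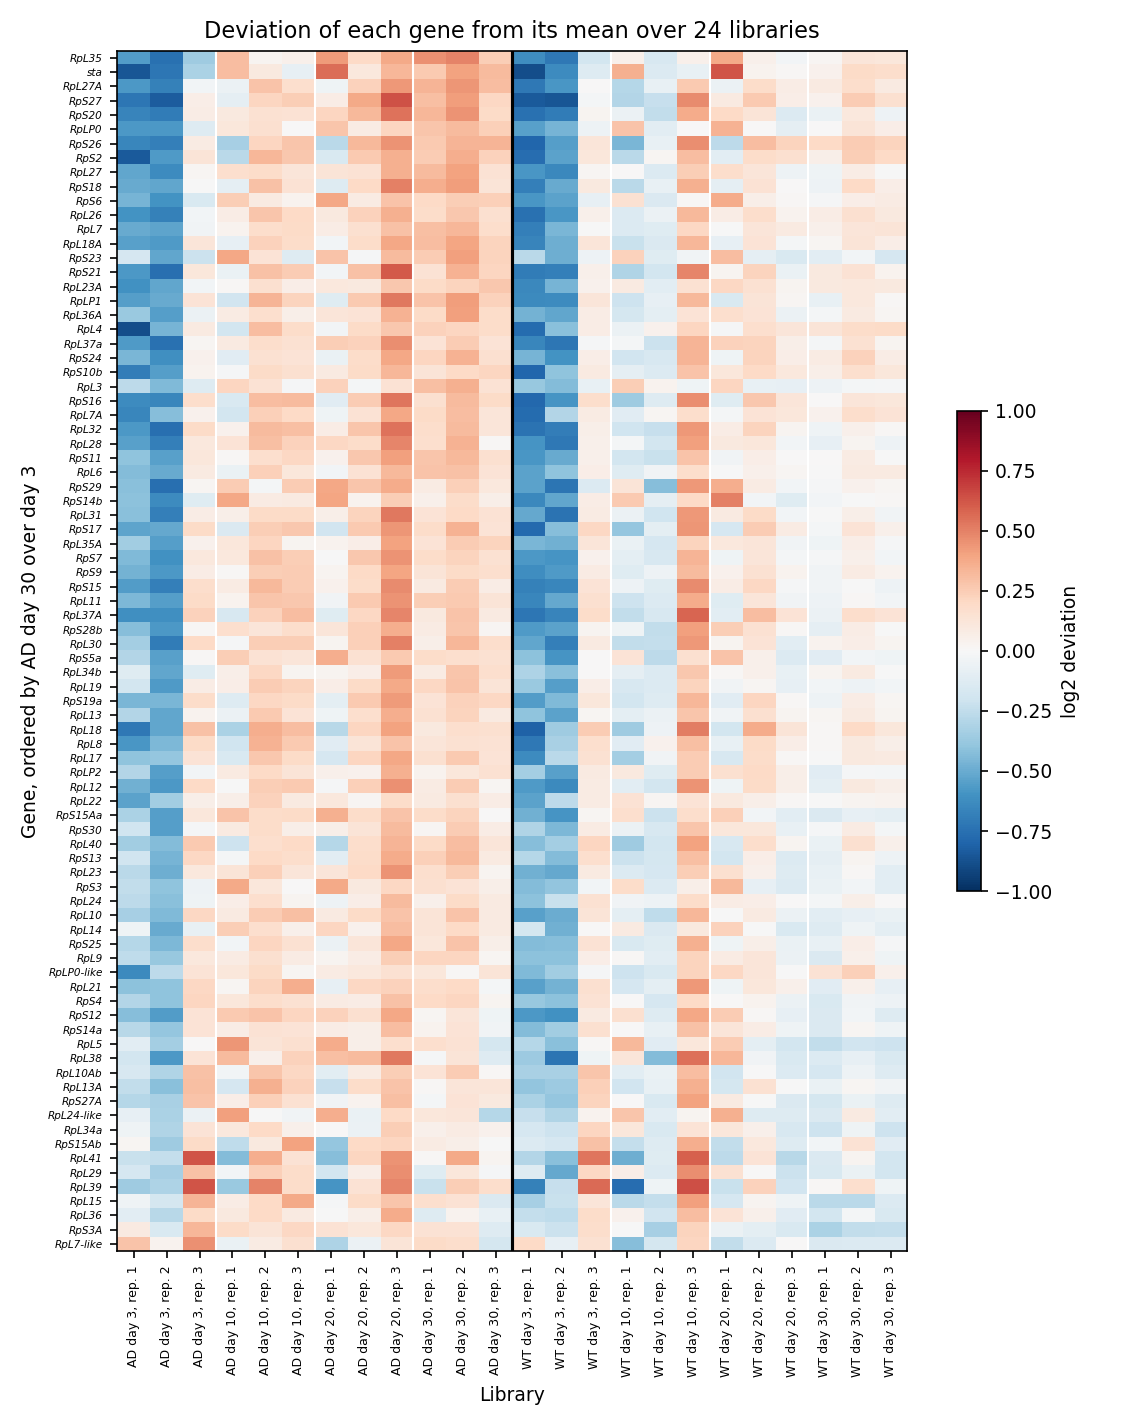
Deviation of the log2 normalized count of each gene from its own mean over the 24 libraries, for 84 of the 88 tested members (rows, ordered by the AD change of day 30 over day 3), in AD libraries on the left and WT libraries on the right. Blue is below and red above the mean, and the colour scale ends at 1 in each direction. Replicates 1 and 2 of day 3 are blue in most rows of both genotypes.

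Markers of other tissues and cell types also differed between these libraries, most of all those of muscle. The sum of 5 muscle genes, *Mhc*, *Act88F*, *up*, *Tm2*, and *Mlc2*, was 129203, 103619, and 43645 normalized counts in AD replicates 1 to 3 of day 3, and lay between 24681 and 38382 at days 10 to 30. For WT flies the corresponding sums were 113554, 114161, and 49815 at day 3 and 28934 to 53006 at the later days. Replicates 1 and 2 of day 3 thus had both the highest muscle sums and the lowest ribosomal protein shares. The mitochondrial genome's share of counts at day 3 also differed, at 4.53%, 8.55%, and 12.0% in AD replicates 1 to 3 and 4.29%, 7.89%, and 9.69% in WT replicates 1 to 3. Replicate 1 of day 3 came from the smaller processing run. Over all ages, the 6 libraries of that run had mitochondrial shares of 2.69% to 4.53%, against 3.69% to 12.0% in the other 18. None of the 5 muscle markers was at 0 in any library.

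Sums of 5 glia markers at day 3 were 37384, 28296, and 22324 normalized counts in AD replicates 1 to 3 and 33386, 30100, and 24111 in WT replicates 1 to 3, against 13260 to 20749 in AD flies and 15852 to 20640 in WT flies at days 10 to 30. All 6 day 3 libraries were above all older ones. Sums of 5 fat body markers were 26223, 31681, and 53376 in AD replicates 1 to 3 of day 3 and 20918, 27792, and 56599 in WT replicates 1 to 3, against 30901 to 87147 in AD flies and 29032 to 106707 in WT flies later. In both genotypes replicate 3 thus had the lowest muscle and glia sums and the highest fat body sum of day 3. Sums of 5 photoreceptor markers at day 3 were 866282, 874447, and 1.05e+06 in AD replicates 1 to 3 and 762830, 859160, and 1.10e+06 in WT replicates 1 to 3. At days 10 to 30 they were 870480 to 1.19e+06 in AD flies and 900846 to 1.24e+06 in WT flies. Replicate 3 thus also had the highest photoreceptor sum of day 3 in both genotypes. The part of muscle, glia, fat body, photoreceptor, gut, and accessory gland RNA in the ribosomal protein values was not tested.

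**Figure D3:**
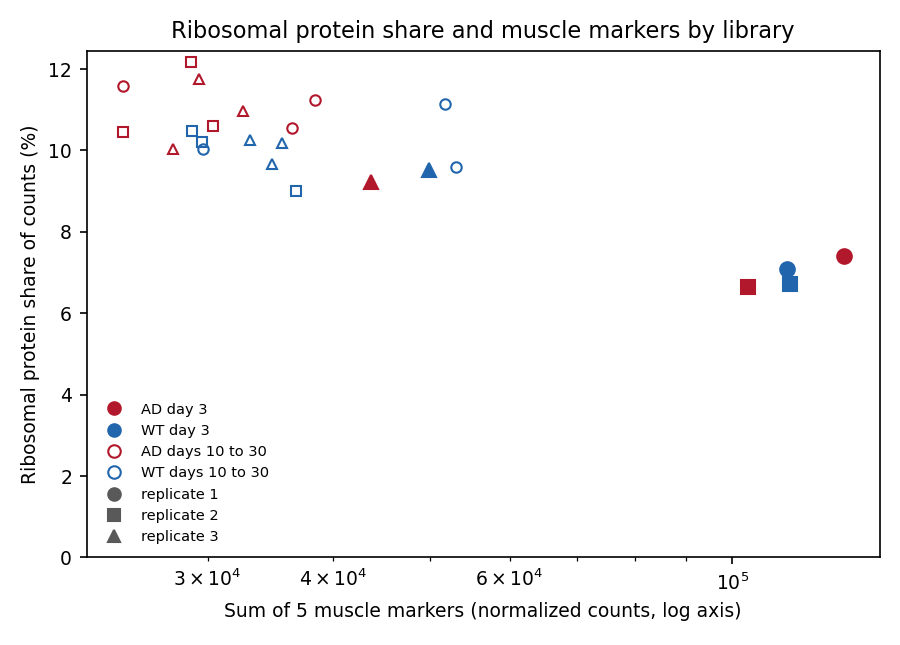
Share of counts in the ribosomal protein genes (%) against the sum of 5 muscle marker genes (normalized counts, log axis) in the 24 libraries. Filled symbols are day 3 and open symbols are days 10 to 30. Replicates 1 and 2 of day 3 lie at sums of 103619 to 129203, and the others at 53006 or below.

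Ageing in AD flies was addressed by comparing day 30 with day 3. A gene was called at a false discovery rate (FDR) under 0.05 in edgeR's quasi-likelihood test with Benjamini-Hochberg adjustment over all 10479 tested genes. At day 30, 22 of the 88 members were called higher than at day 3 and 0 lower, against 10.2% of all tested genes called higher and 11.7% lower. At an unadjusted p under 0.05 there were 52 members (34.3% of all tested genes). The median log2 fold change of the members was 0.44, or 1.35-fold, while the median of all tested genes was 0.01. All 22 had no overlap between day 30 and day 3 libraries, as had 24 further members, 46 in all, against 19.8% of all tested genes. None passed the study's further limit of a 2-fold change, which 7.68% of all tested genes passed together with the FDR. Without the library labelled AD day 30 replicate 3, 57 members did not overlap, against 26% of all tested genes. Leaving out a library can only keep or raise such counts.

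Markers of several cell types were called lower at day 30 than at day 3. In AD flies these included all 5 muscle markers and 3 of 5 glia markers (*alrm* at -2.72, *Eaat1* at -1.03, and *Gs2* at -0.89). They also included 3 of 5 neuron markers (*Syt1* at -1.29, *Syn* at -0.90, and *nSyb* at -0.44). In WT flies they included all 5 muscle markers, the same 3 glia markers (*alrm* at -2.18, *Eaat1* at -0.77, and *Gs2* at -0.82), and the neuron marker *Syt1* (-0.67). The hemocyte marker *Pxn* was called lower in both, at -0.67 in AD flies and -0.74 in WT flies. *dj* and *Acp36DE*, both high in WT day 3 replicate 1, were called lower in WT flies only (-8.07 and -8.42). Of 5 ovary and female fat body markers, *Yp1* (3.54) and *Yp3* (0.87) were called higher in AD flies, and *Yp3* (0.61) in WT flies. The 5 photoreceptor markers did not pass the test, with log2 fold changes of -0.52 to 0.11 in AD flies and -0.48 to 0.40 in WT flies. The part of these cell types in the change of the ribosomal protein genes with age was not tested.

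*RpL35*, a large subunit protein beside the exit of the nascent chain, changed most clearly. It lies on chromosome X from 5672401 to 5673547 (release 6). Its normalized counts were 26473, 27162, and 22825 in AD flies at day 30, against 13066, 11508, and 15080 at day 3. The means were 25487 ± 2331 and 13218 ± 1791 (SD, n = 3 each), and every day 30 library was above every day 3 library. The log2 fold change was 0.95 (SE 0.15, edgeR FDR 2.4e-04), and 1.01 (edgeR FDR 6.1e-04) without the library labelled AD day 30 replicate 3. *RpL35* was the only member already called between day 10 and day 3 in AD flies (0.68, SE 0.15, edgeR FDR 0.021).

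*sta*, the small subunit protein named for the stubarista mutant with its shortened aristae, is also on X, from 1481797 to 1483413. It had 36200, 40019, and 37717 normalized counts in AD flies at day 30 and 16755, 18330, and 24227 at day 3, with no overlap. Its log2 fold change was 0.94 (SE 0.21, edgeR FDR 0.0034), and 0.93 (edgeR FDR 0.012) without the library labelled AD day 30 replicate 3.

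The next largest called changes were in *RpL27A* (log2 fold change 0.76, SE 0.20), *RpS27* (0.75, SE 0.25), and *RpS20* (0.71, SE 0.22), with edgeR FDRs of 0.0095, 0.040, and 0.024. *RpS27*, a zinc finger protein of the small subunit, had 20035, 21789, and 18783 normalized counts in AD flies at day 30 against 9870, 9165, and 17014 at day 3. The smallest called change was in *RpL34b* (0.42, SE 0.15, edgeR FDR 0.047), with *RpL6*, *RpL3*, and *RpS10b* between 0.50 and 0.55. *RpL3* contributes to the peptidyl transferase centre. Without the library labelled AD day 30 replicate 3, *RpL27A* and *RpS20* kept their calls (edgeR FDR 0.023 and 0.041), and *RpS27* and *RpL34b* did not (0.070 and 0.10).

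Calls were spread over both subunits. They comprised 13 of 49 tested large subunit genes and 9 of 36 small subunit genes. The 3 tested -like genes did not pass, with log2 fold changes of 0.31 for *RpLP0-like*, 0.14 for *RpL24-like*, and -0.19 for *RpL7-like*. Of the stalk, which recruits translation factors to the ribosome, *RpLP0* rose (0.69, SE 0.16, edgeR FDR 0.0038), while *RpLP1* and *RpLP2* were not called at 0.58 and 0.37. *RpS6*, the substrate of S6 kinase downstream of TOR, rose by 0.62 (SE 0.15, edgeR FDR 0.0058). Without the library labelled AD day 30 replicate 3 the values were 0.69 for *RpLP0* and 0.60 for *RpS6* (edgeR FDR 0.012 and 0.021). The 2 members that are made as fusions with ubiquitin, *RpL40* and *RpS27A*, were not called, at 0.35 (SE 0.22) and 0.15 (SE 0.18). Calls were found on X (4 of 14 members), 2L (2 of 17), 2R (4 of 18), 3L (3 of 13), and 3R (7 of 20), with 2 more among the genes whose positions were not used.

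A few abundant members had estimates near 0. *RpS3A* had 22568, 22564, and 18645 normalized counts in AD flies at day 30 and 21738, 18356, and 25679 at day 3, a log2 fold change of -0.04 (SE 0.14). *RpL15*, *RpL36*, *RpL39*, *RpL29*, and *RpL41* had log2 fold changes between -0.01 and 0.04. *RpL39* and *RpL41*, which encode the shortest of these proteins, also differed by processing run. At days 10 and 20, *RpL39* had 5391 and 4643 normalized counts in AD replicate 1, against 7739 to 9871 in AD replicates 2 and 3. The lowest estimate was that of *RpL7-like* at -0.19 (SE 0.15, edgeR FDR 0.41), whose yeast relative acts in ribosome assembly. It had 860, 850, and 666 normalized counts at day 30 and 915, 772, and 1030 at day 3, and these ranges overlapped.

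**Figure D4:**
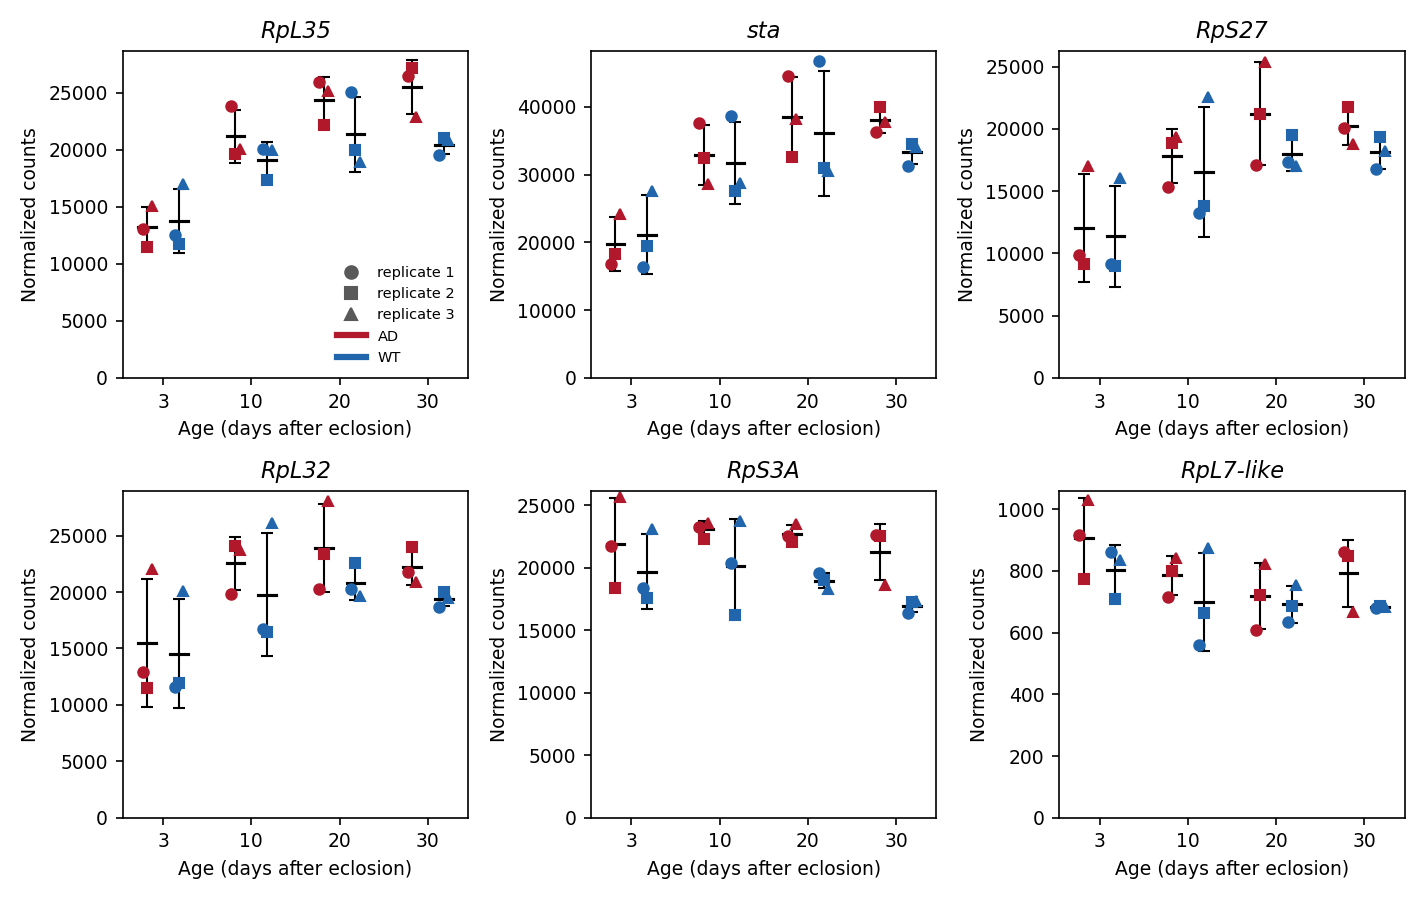
Normalized counts of 6 members by age in days after eclosion (not to scale), AD left of WT. Symbols are libraries, lines are means, and bars are 1 SD (n = 3 per group). *RpL35* and *sta* at day 30 lie above all day 3 libraries in both genotypes, and *RpS3A* and *RpL7-like* overlap between days in AD flies.

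Ageing in WT flies gave the same direction with fewer calls. At day 30, 2 of the 88 members were called higher than at day 3, *RpL35* and *sta*, and 0 lower, against 4.52% of all tested genes called higher and 6.63% lower. At an unadjusted p under 0.05 there were 19 members (26.3% of all tested genes). The median log2 fold change of the members was 0.31, or 1.24-fold, beside -0.01 for all tested genes. No overlap, with day 30 higher, was seen in 17 members, against 17.1% of all tested genes. In WT flies *RpL35* had 19544, 20983, and 20815 normalized counts at day 30 and 12555, 11758, and 16992 at day 3 (log2 fold change 0.57, SE 0.15, edgeR FDR 0.020). *sta* had 31245, 34468, and 34126 normalized counts at day 30 against 16315, 19524, and 27616 at day 3 (0.65, SE 0.21, edgeR FDR 0.049). *RpS3A* was at -0.21 (SE 0.14, edgeR FDR 0.37).

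Whether the change with age differed between genotypes was tested as an interaction. edgeR called 0 of the 88 members, as it called 0% of all tested genes. At an unadjusted p under 0.05 there were 2 members (3.69% of all tested genes), the low-count genes *RpL37b* and *RpS10a*, and DESeq2 and limma also called 0. The larger number of calls in AD flies was therefore not shown to be a difference between the genotypes. The median difference of the members was 0.13 on the log2 scale, with a median SE of 0.26. Without the library labelled AD day 30 replicate 3 it was 0.14, and edgeR again called 0 members, with 3 at an unadjusted p under 0.05.

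Counts of called members depended on the day 3 libraries. Without replicate 3 of day 3 in both genotypes, a choice made after its values were seen, 69 of 90 tested members were called higher at day 30 in AD flies and 0 lower (22.8% of all tested genes were called in either direction). In WT flies the counts were then 56 higher and 1 lower, the lower one being *RpL22-like*, whose counts came mainly from WT day 3 replicate 1 (18% of all tested genes). Replicate 3 was the highest day 3 library in 85 members in AD flies and 84 in WT flies, so larger changes were built in for both genotypes. Of the 69 members called in AD flies 56 were also called in WT flies, 81.2% of the AD and 98.2% of the WT calls. The share of all tested genes called in both genotypes is not given here. *RpL35*, *sta*, *RpS27*, and *RpS20* were then over 2-fold in AD flies, with log2 fold changes of 1.06, 1.12, 1.10, and 1.02. Between day 10 and day 3, 62 were then called higher in AD flies (10.3% of all tested genes) and 55 in WT flies (8.5%). Leaving out either of the other day 3 libraries had the opposite effect in AD flies, with 6 members called without replicate 1 and 3 without replicate 2. The share of all tested genes called in these fits is not given here. Without the library labelled AD day 30 replicate 3, 12 were called higher, with a median log2 fold change of 0.44. In that fit 6.49% of all tested genes were called higher and 9.11% lower.

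Day 10 was compared with day 3 and day 30 to place the difference in time. The median log2 fold change of the members was 0.40 between day 10 and day 3 in AD flies and 0.32 in WT flies, and 0.02 and -0.03 between day 30 and day 10. With 1 library left out these medians ranged from 0.29 to 0.63 in AD flies and from 0.17 (without WT day 10 replicate 3) to 0.56 (without WT day 3 replicate 3) in WT flies for day 10 over day 3, and from -0.03 to 0.05 and from -0.10 to 0.12 for day 30 over day 10. edgeR called 1 member between day 10 and day 3 in AD flies (0.678% of all tested genes were called higher, and 49 members had an unadjusted p under 0.05, against 18.4% of all tested genes) and 0 in WT flies (0.191%, with 24 members at an unadjusted p under 0.05 against 16.1% of all tested genes, and DESeq2 called 1 and limma 0). Between day 30 and day 10 it called 0 in AD flies (4.13% of all tested genes in either direction, with 0 members at an unadjusted p under 0.05 against 17.7%) and 0 in WT flies (0.553%, with 1 member against 10.1%). DESeq2 called 0 in both, and limma on log2(FPKM + 1) called 1 in AD flies and 0 in WT flies. These comparisons were added after the values were seen, and those with day 3 share its libraries.

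The effect of the transgene was addressed by comparing AD with WT flies at each age, and no member passed the test. edgeR called 0 of the 88 members between AD and WT flies at day 3 (0.0286% of all tested genes), day 10 (0.21%), day 20 (0.153%), and day 30 (0.0286%). DESeq2 and limma also called 0 on each day, and 0, 2, 2, and 5 members had an unadjusted p under 0.05, against 3.55%, 3.05%, 4.43%, and 7.86% of all tested genes. The median log2 fold change of the members was 0.03, 0.10, 0.15, and 0.17 at the 4 ages, and the estimates were above 0 in 61, 86, 88, and 87 members. Members share their libraries and can move together, so these are not counts of independent results. The median of all tested genes was within 0.01 of 0 at each age. Leaving out 1 library moved the median of the members to between -0.17 and 0.28 at day 3, 0.03 and 0.28 at day 10, 0.05 and 0.20 at day 20, and 0.13 and 0.20 at day 30, so the ranges of the 4 ages overlapped. The ends were reached without AD and WT replicate 3 at day 3, WT replicates 2 and 3 at day 10, AD replicates 3 and 1 at day 20, and AD replicates 2 and 3 at day 30. The fit did not pair libraries, and with its median SE of 0.19 for a single member, differences of this size were not called gene by gene. At days 10 and 20, same-numbered AD and WT libraries were taken as paired. Leaving out 1 library there kept its partner of the other genotype. Adding the replicate number to the fit changed no call between AD and WT flies on these 2 days.

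At day 30, the AD libraries lay above the WT libraries without overlap in 50 of the 88 members, against 12.2% of all tested genes. At day 20 this was 9 members (5.11% of all tested genes), at day 10 it was 3 (3.63%), and at day 3 it was 0 (1.78%). Since members come from the same libraries, they are not independent of one another. The library labelled AD day 30 replicate 3 was the lowest AD library of that day in 61 members, and without it 69 members did not overlap, against 21.3% of all tested genes. The median log2 fold change was then 0.20, and edgeR called 0 members. Leaving out a library can only keep or raise the number of members without overlap. That number was 59 without AD day 30 replicate 1 and 50 without AD day 30 replicate 2, and the matching shares of all tested genes are not given here. The summed counts of 5 neuron markers also separated the genotypes at day 30, with 27485, 26357, and 35480 normalized counts in AD flies against 42274, 39580, and 40367 in WT flies, and none of the 5 was at 0 in any library. At day 3 these sums overlapped between genotypes. They were 35118, 58822, and 52355 in AD replicates 1 to 3 and 43303, 57330, and 46870 in WT replicates 1 to 3. The part of the neuron content in the ribosomal protein values was not tested.

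The 5 members with an unadjusted p under 0.05 at day 30 were *RpL37b*, *RpS23*, *RpL35*, *RpL3*, and *RpS3A*. The low-count *RpL37b* had the largest estimate (log2 fold change 3.30, SE 1.30, edgeR FDR 0.51). *RpS23*, which lies at the decoding centre, followed with 0.40 (SE 0.16, edgeR FDR 0.53), and 0.44 (edgeR FDR 0.43) without the library labelled AD day 30 replicate 3. *RpS3A*, whose estimate with age in AD flies was near 0, had 22568, 22564, and 18645 normalized counts in AD flies at day 30, against 16354, 17239, and 17315 in WT flies, without overlap, and the estimate was 0.33 (SE 0.14, edgeR FDR 0.58).

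**Figure D5:**
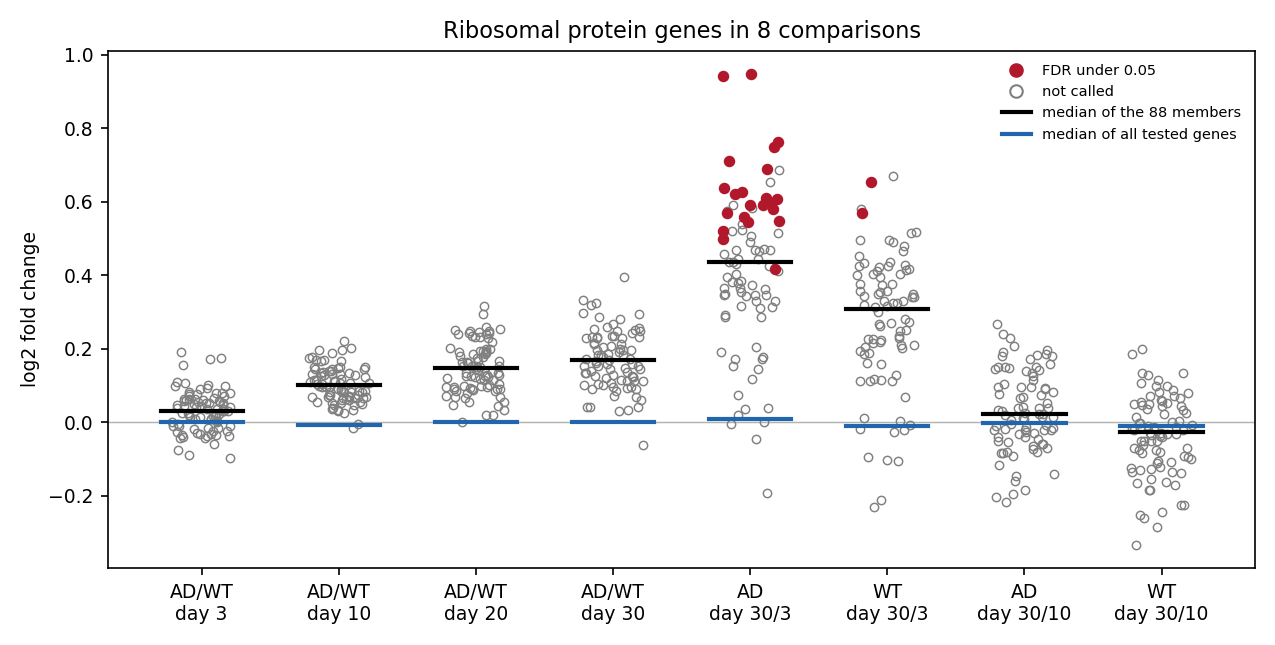
Log2 fold change of the ribosomal protein genes (points, with 3 low-count members left out) in 8 comparisons, AD over WT on each day and older over younger flies within a genotype. Red points were called by edgeR at an FDR under 0.05, black lines are the medians of all 88 members, and blue lines the medians of all tested genes. The medians are 0.44 in AD flies and 0.31 in WT flies for day 30 over day 3, and 0.03 to 0.17 for AD over WT.

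*RpL32*, on 3R from 30045229 to 30046161, varied with the other members. It had 21767, 23954, and 20924 normalized counts in AD flies at day 30, against 12959, 11464, and 22001 at day 3. In WT flies it had 18699, 19981, and 19449 at day 30 and 11591, 11927, and 20098 at day 3. Over the 24 libraries its highest value was 2.45 times its lowest. None of these differences was called, with log2 fold changes for day 30 over day 3 of 0.52 (SE 0.24, edgeR FDR 0.12) in AD flies and 0.41 (SE 0.24, edgeR FDR 0.28) in WT flies. AD over WT was 0.09, 0.19, 0.20, and 0.20 at days 3, 10, 20, and 30 (SE 0.24 each). Without replicate 3 of day 3 in both genotypes the changes with age were 0.87 (SE 0.18, edgeR FDR 0.0020) in AD flies and 0.73 (SE 0.18, edgeR FDR 0.011) in WT flies. That library had the highest *RpL32* counts of day 3, and the choice was made after its values were seen, so a larger change was built in. With 1 library left out, the AD change was 0.32 (without AD day 3 replicate 2) to 0.85 (without AD day 3 replicate 3). The WT change was then 0.28 (without WT day 3 replicate 1) to 0.73 (without WT day 3 replicate 3).

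Several ribosomal proteins are encoded by 2 genes, of which 1 is often enriched in the germ line. In heads one copy dominated each such pair. By FPKM, *RpS5b*, *RpS10a*, and *RpL37b* made up 0.183%, 0.0729%, and 0.150% of their pairs with *RpS5a*, *RpS10b*, and *RpL37a*. *RpS15Ab* made up 3.08% of its pair with *RpS15Aa*, *RpS14b* 16.2% of that with *RpS14a*, and *RpL34a* 18.7% of that with *RpL34b*. *RpS14a* and *RpS14b* lie side by side on X, from 7933742 to 7934677 and from 7934898 to 7935792. They had fractional counts in all 24 libraries, as had *RpL24* and *RpL30*, so reads could be split and the values of these genes are uncertain.

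The -like genes were lower than their namesakes. *RpL24-like* reached a mean of 374 FPKM against 1582 for *RpL24*, *RpL7-like* 55.3 against 2307 for *RpL7*, and *RpLP0-like* 20.6 against 1178 for *RpLP0*. In yeast the relatives of these 3 genes act in the assembly of the large subunit. The share of *RpL7-like* in its pair was 2.05% ± 0.19 at day 30 and 3.58% ± 0.37 at day 3 in AD flies. In WT flies it was 2.01% ± 0.05 and 3.31% ± 0.85 (SD, n = 3 each), without overlap in either genotype. The shares of *RpL34a* and *RpS15Ab* were also lower at day 30 than at day 3 without overlap in either genotype. That of *RpS14b*, whose values are uncertain, was higher without overlap in either. The share of *RpL24-like* overlapped in both genotypes, and that of *RpLP0-like* in WT flies only. A share also depends on the other gene of the pair. AD log2 fold changes with age were 0.64 for *RpL7* and -0.098 for *RpL7-like* without the library labelled AD day 30 replicate 3.

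5 members had too few counts to be tested, and these came mainly from a single library. *RpL10Aa* had 117, *RpL22-like* 90, *RpS19b* 77, and *RpS28-like* 12 expected counts in WT day 3 replicate 1. In AD day 10 replicate 1 the first 3 of these had 20, 17, and 13, and elsewhere each had at most 3. *RpS28a* was listed in 1 library only, with 2 expected counts. *RpL22-like* is known for expression in the testis. The testis gene *dj* had 399 normalized counts in WT day 3 replicate 1 and 79.6 in AD day 10 replicate 1, and 15.5 or fewer in all other libraries, so the testis marker and these members were high in the same 2 libraries.

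2 low second copies had higher counts in most AD libraries from day 10 on, without passing the test. *RpL37b*, on 2R, had 16.7, 31.3, and 53.7 normalized counts in AD flies at day 10 against 4.13, 2.25, and 1.53 in WT flies, and 20.9, 85.4, and 80.2 against 5.93, 7.72, and 2.41 at day 20. At day 30 it had 66.3 and 39.3 in AD replicates 1 and 2 but 2.24 in the library labelled AD day 30 replicate 3, against 1.16, 6.01, and 3.45 in WT flies. *RpS10a* had 24.4, 36.1, and 42.1 normalized counts in AD flies at day 20 against 3.71, 5.14, and 9.62 in WT flies. In the library labelled AD day 30 replicate 3, *RpS10a* was also at 2.24, below the 15.1 and 22.4 of the other AD libraries of that day. The lowest edgeR FDR of these comparisons was 0.51. At day 3 the direction was the opposite. *RpS10a* then had a mean of 2.51 ± 1.38 in AD flies and 10.7 ± 7.84 in WT flies, without overlap. *RpL37b* had 5.01 ± 5.02 and 7.82 ± 13.5 (SD, n = 3 each). These 2 genes were the members with an unadjusted p under 0.05 in the interaction, which includes the day 3 values. *RpS5b*, enriched in the female germ line, had 100.4, 61.7, and 50.3 normalized counts in AD flies at day 30 and 46.4, 63.7, and 41.4 in WT flies.

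Other parts of the translation apparatus were compared by lists chosen with earlier results of these data known. Of 29 ribosome biogenesis genes, 9 were called higher and 0 lower at day 30 than at day 3 in AD flies, with a median log2 fold change of 0.43, against 10.2% of all tested genes called higher and 11.7% lower. They included *nop5* (0.99) and *Fib* (0.78), which encode proteins of the box C/D particles that modify ribosomal RNA. In WT flies 1 of the 29 was called, *Rrp4*, a subunit of the exosome (0.66), against 4.52% of all tested genes called higher. Of 26 translation factors, 4 were called higher in AD flies, among them *eIF-2beta* (0.94) and *eIF6* (0.84), and 1 lower, the elongation factor gene *Ef1alpha100E* (-0.37). *eIF-2beta* and *eIF6* were called higher in WT flies also. Of 15 tested genes of the nutrient and stress control of translation, *Xrp1* alone was called in AD flies. This transcription factor responds to ribosomal protein loss. It rose by 1.29 in AD flies and 1.14 in WT flies (edgeR FDR 1.2e-05 and 8.7e-05). In WT flies *crc* was also called (0.38, edgeR FDR 0.041). The other tested genes of that list, *Tor* and *S6k* among them, were not called in either genotype. Among 73 mitochondrial ribosomal protein genes, 0 were called higher and 18 lower in AD flies, with a median of -0.29, and 0 higher and 7 lower in WT flies, with a median of -0.18. In all tested genes 11.7% were called lower in AD flies and 6.63% in WT flies. Without the library labelled AD day 30 replicate 3, 4 biogenesis genes were called higher in AD flies, 2 translation factors higher and 1 lower, and 11 mitochondrial ribosomal protein genes lower, against 6.49% of all tested genes higher and 9.11% lower. Genes within the length range of the members had medians of 0.11 in AD flies and 0.05 in WT flies.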

How the data were processed

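Heads of male AD and WT flies were sequenced on poly-T selected RNA. Per the labels and the study's methods, the authors filtered reads with SOAPnuke, mapped them with HISAT2 2.0.4 and Bowtie2 to the release 6 genome, and estimated expression with RSEM. The deposited expected counts are raw RSEM estimates of fragments per gene. In the deposited FPKM, the authors had scaled these estimates to gene length and library size. A gene not listed in a library was taken as 0, and genes added by the authors (0.287% to 1.15% of counts) were left out. Gene length was read from the deposited tables.

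Counts were rounded to whole numbers and modelled with edgeR 4.0.16 in R 4.3.3 (TMM, filterByExpr, 8 groups in one fit, quasi-likelihood test). Each standard error was obtained by dividing the estimate by the root of F. 11 comparisons were fitted, and 88 members passed the filter. Normalized counts are counts scaled by TMM. Named members were *RpL32*, the 5 called members with the highest and the 5 with the lowest fold change per comparison, paralog pairs, the 3 highest and 3 lowest by FPKM, the stalk, *sta*, and the ubiquitin fusions. *RpS3A*, *RpS23*, *RpS6*, and the members named as near 0 were chosen after their values were seen. From the other lists and markers at most 5 called genes per comparison were to be named by lowest FDR. *Fib*, *Rrp4*, *Ef1alpha100E*, *Mhc*, *up*, *dj*, *Acp36DE*, *Pxn*, *Yp1*, *Yp3*, and the glia and neuron markers were added after their values were seen. The values of 1 member are not reported here by name. The members and lists were chosen with earlier results of these data known.

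Deviations of same-numbered AD and WT libraries from their group means correlated above 0.1 over all tested genes in every pair at day 10 (0.761, 0.319, and 0.539) and day 20 (0.805, 0.481, and 0.378), in replicates 1 and 3 but not 2 at day 3 (0.478, 0.088, and 0.646), and in no pair at day 30 (-0.057, 0.046, and -0.113). Only days 10 and 20 were taken as paired, by the numbers in the labels. Alternatives were DESeq2 1.42.0, RLE, filters, the groups compared alone, a replicate block, the processing run, limma 3.58.1 on log2(FPKM + 1) and log2(FPKM + 0.1), and leaving out libraries. The fits were tested on simulated data, in which DESeq2 called more unchanged genes than edgeR or limma. Those data had the same spread for every gene and no effect of run, replicate, or tissue. They therefore do not show how far the calls of each fit can be trusted in the real libraries. Positions follow the release 6 annotation, and figures were drawn in Python 3.11.15 with matplotlib 3.10.9.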

Additional observations from a re-analysis of the deposited data

How the results depend on the processing

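Between AD and WT flies, 0 members were called on each day under most alternatives. The exceptions were day 30 with only the groups compared (1) and with a replicate block within day (2, added after seeing the data). For day 30 against day 3 in AD flies, against 22 members in the main analysis, the count was 34 with DESeq2, 13 with no filter on low counts, 2 with only the groups compared, 50 with a replicate block, 34 with the processing run as a covariate, 11 in the second run alone, 0 with the 2-fold limit, 67 with limma at either pseudocount, and 69 without replicate 3 of day 3 in both genotypes. In WT flies, against 2, it was 8, 1, 1, 14, and 4 with the first 5 of these settings, 0 with the 2-fold limit, 25 and 24 with limma at pseudocounts of 1 and 0.1, and 57 without replicate 3 of day 3. For day 10 against day 3 in AD flies, against 1, it was 8 with DESeq2, 0 with only the groups compared, 8 with the replicate block, 12 with the run as a covariate, 0 in the second run alone, 0 with the 2-fold limit, 8 with limma, and 62 without replicate 3 of day 3. In WT flies it was 1 with DESeq2 and 55 without replicate 3 of day 3, against 0. For day 30 against day 10 in AD flies limma on log2(FPKM + 1) called 1. Leaving out 1 library at a time gave 3 to 58 members for day 30 against day 3 in AD flies (3 without AD day 3 replicate 2, 6 without AD day 3 replicate 1, 8, 10, and 12 without AD day 30 replicates 2, 1, and 3, and 58 without AD day 3 replicate 3) and 0 to 37 in WT flies (37 without WT day 3 replicate 3, 1 without WT day 30 replicate 1, 0 without any other). For day 10 against day 3 it gave 0 to 34 in AD flies (34 without AD day 3 replicate 3, 1 without AD day 10 replicate 2, 0 otherwise) and 0 to 22 in WT flies (22 without WT day 3 replicate 3, 0 otherwise). For the other comparisons it gave 0. The replicate block changed no call between AD and WT flies at days 10 and 20, and numbers do not pair libraries of different days. For most of these settings the share of all tested genes called is not given here. The counts alone therefore do not tell a change of the members from a setting that called more of all genes. The causes of these differences were not tested.

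Leaving out counts of the mitochondrial genome and the 20 most abundant other genes makes the total smaller, so the share of counts in the members must rise. It was then 13.9% in AD flies and 12.3% in WT flies at day 30. As a share of the FPKM sum the means were 25.5% and 23.9%, and the genotypes overlapped at day 30. The library labelled AD day 30 replicate 3 was at 23.96% and WT day 30 replicate 3 at 23.98%. With 1 library left out, the median log2 fold change of the members was between -0.11 and 0.33 for the interaction. Estimates of *RpL32* also changed sign. Leaving out 1 library at a time, AD over WT at day 3 was between -0.23 and 0.42, and below 0 without AD replicate 3, WT replicate 1, or WT replicate 2. AD day 30 over day 10 was 0.079 with limma at either pseudocount, and between -0.10 and 0.017 with 1 library left out. WT day 30 over day 10 was 0.0032 with the replicate block, 0.090 with limma, and between -0.16 and 0.21 with 1 library left out, the highest without WT day 10 replicate 3. The interaction was between -0.23 and 0.43, and below 0 without WT day 3 replicate 3, AD day 3 replicate 1, or AD day 3 replicate 2. Counting error is small for the abundant members and limits *RpL37b*, *RpS10a*, and *RpS5b*, with at most 100.4 normalized counts in a library.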
